A study of Homo sapiens with 18 samples.

Results

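Raji cells harvested at 24 h were compared with Raji cells harvested at 0 h. The arrays were chosen by the harvest time in their labels and by no measured value. They are the 3 arrays of 24 h and the 3 arrays of 0 h, 6 of the 18 arrays of the series, and 18417 genes were measured on each by a probe set that names 1 gene. Raji is an established Epstein-Barr virus-positive B-cell line from a Burkitt lymphoma, so all arrays come from 1 line. Per the labels, every group carried maslinic acid at 19 µM, phorbol ester at 0.05 µM and sodium n-butyrate at 3 mM together. The 24 h group was harvested at 24 h and the 0 h group at 0 h, and no arm that lacks a compound was analysed here, so the 3 compounds and the time in culture cannot be told apart. The labels do not say whether the 0 h cells were harvested before or right after the compounds were added. The labels call the 3 arrays of a time biological replicates.

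As background, n-butyrate blocks histone deacetylases and phorbol esters mimic diacylglycerol and thereby turn on protein kinase C. Given together, they can start the lytic cycle of latent Epstein-Barr virus in some B cell lines. Viral genes and viral replication in these cells were not examined here. Maslinic acid comes from olives and is a triterpene. Cells that sense foreign nucleic acid with receptors such as RIGI secrete interferon, which acts through JAK kinases, STAT proteins and interferon regulatory factors on the promoters of antiviral genes. Genes of DNA replication are driven by E2F factors, and many genes of mitosis carry a CHR element in their promoters, at which the DREAM complex represses them in resting cells.

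Values are log2 intensities, each gene is represented by its probe set of highest mean, and differences are 24 h minus 0 h on the log2 scale. A gene was called at a Benjamini-Hochberg adjusted p under 0.05 in limma's moderated two-sided test over all genes, and "rose" and "fell" are used of called genes. The 18 array medians lay between 4.03 and 4.25. Replicate 3 of 24 h stood apart: 722 and 496 genes differed by more than 1 on the log2 scale between it and replicates 1 and 2 of 24 h, against 76 genes between these other arrays of 24 h. At 0 h the same count was 289, 382 and 607 for the 3 pairs of arrays. It was 64 to 707 at 4 h, 216 to 1613 at 8 h, 49 to 218 at 12 h and 391 to 990 at 48 h. Gaps of this size were thus not particular to 24 h. Values of every array are therefore given for the main results, and counts are also given without replicate 3 of 24 h for several lists. The counts of other lists can also differ without that array. Where leaving out any single array ended the call of a gene that was named by size or p and is described here, each such array is named. The adjusted p given is the one reached when that array alone was left out. ISG15, OAS1, MX2, BST2 and MYC, picked after their values were seen, were not checked in this way. Of the 10 B cell markers listed, 6 were measured and 0 were called at 24 h against 0 h, with a median difference of -0.82. This 0 depended on the setting, since 2 of the 6 were called lower after quantile normalization and 3 with the array medians set equal. CD22, an inhibitory receptor of B cells, had a difference of -1.12 (adjusted p = 0.0504) and was called lower under 10 of 16 alternatives, and MS4A1 under 6. The gene of the B cell surface protein CD20, MS4A1, read 9.53, 9.21 and 8.73 at 24 h, against 10.53, 9.97 and 9.58 at 0 h, the groups not overlapping (log2 difference -0.87, adjusted p = 0.0607, not called). CD3D of the T cell receptor rose by 1.57 and the T cell adaptor TRAT1 fell by 1.90, as 2 of 12 T cell and NK cell markers. PECAM1, of endothelial and blood cells, 1 of 9 fibroblast and endothelial markers, rose by 1.95 on 1 probe set and read a difference of 0.08 on its second. Per array, the mean over the T cell and NK cell markers was 3.73 to 3.82 at 24 h and 3.71 to 3.81 at 0 h, and over the B cell markers 6.35 to 7.19 at 24 h and 7.53 to 7.72 at 0 h. Of the 9 monocyte and macrophage, 8 epithelial and 3 erythroid markers measured, 0 were called. CSF1R, a monocyte marker, was called higher without replicate 3 of 24 h, with array weights and with the replicate number as a block. ELF3, an epithelial marker, was called higher with array weights. The part of these markers in the results was not tested. In bulk RNA, fewer cells of a type and less RNA per cell cannot be told apart.

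Limma called 2298 of 18417 genes (12.5%), 1241 higher (6.74%) and 1057 lower (5.74%) at 24 h than at 0 h. The shares called higher and lower are the background for each list count below. At least a 2-fold difference was reached by 641 of the higher genes (3.48% of all) and 503 of the lower ones (2.73% of all). The median difference over all genes was -0.007. Of the calls, 54.0% were higher at 24 h on the deposited values, and 42.9% once the array medians were set equal. Without replicate 3 of 24 h, 1207 genes (6.55%) were higher and 820 (4.45%) lower, and 1785 of the 2298 calls remained, which is 77.7% of the calls on all arrays and 88.1% of those without the array. Rises reached further than falls. The 15 largest rises ran from 4.38 for SPP1 to 6.86 for IFIT1, and the 15 largest falls from 2.47 for PBK to 3.38 for RASSF6. Both sets were taken only from called genes without overlap of the groups, so that trait was fixed by the choice. Over all genes the groups overlapped in 13375 of 18417. IFIT1, IFI44L, IFI44 and SPP1, 4 of these 15 rises, had 0 h means below the mean lower quartile of the 0 h arrays, close to background, which can make their differences too small. The same holds for the rises of CD3D, MX2, TRAF1, VCAM1 and MMP13. Their differences are not exact sizes.

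**Figure D1:**
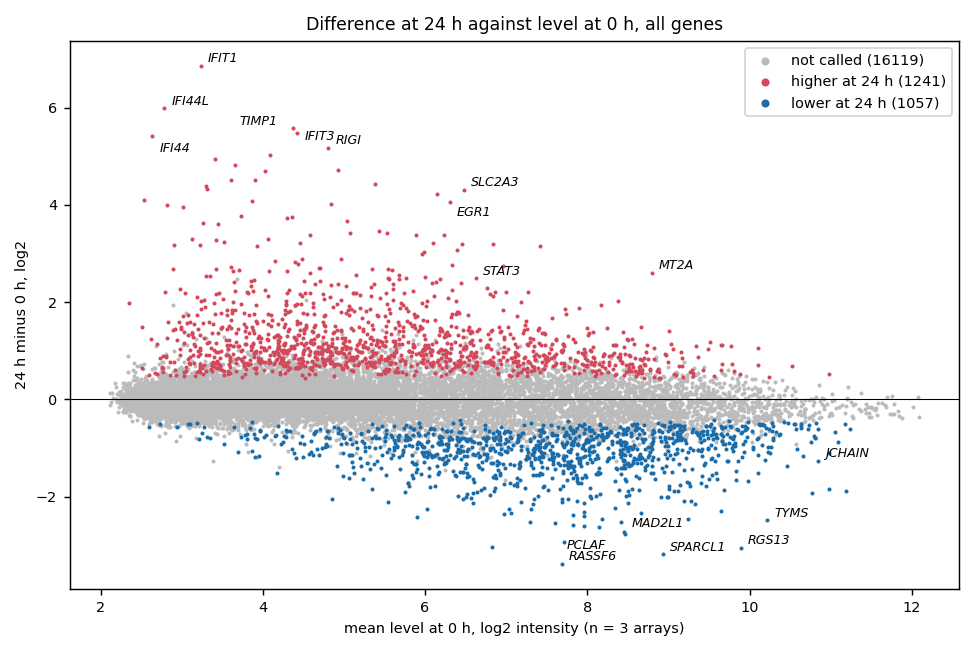
Mean level at 0 h (x axis, log2 intensity, 3 arrays) against the difference 24 h minus 0 h (y axis, log2) for each of 18417 genes; red points are genes called higher at 24 h, blue points genes called lower and grey points genes not called. IFIT1, at a difference of 6.86, started from 3.24 at 0 h, and RASSF6, at -3.38, from 7.68.

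Antiviral effector genes, whose products block viruses in cells that received interferon, rose at 24 h. Of the 40 measured, 27 rose and 0 fell, against 6.74% of all genes called higher, and the list median was 2.39. IFIT1, whose product binds viral RNA, read 10.70, 10.71 and 8.90 at 24 h, against 3.14, 3.86 and 2.72 at 0 h. All 3 arrays of 24 h lay more than 5 log2 units above each array of 0 h, replicate 3 being the lowest of 24 h. The difference was 6.86 (SE 0.40, adjusted p = 2.12e-08) and 7.47 without replicate 3 of 24 h. IFI44L, an interferon-induced gene, read 9.57, 9.62 and 7.13 at 24 h, against 2.67, 3.05 and 2.64 at 0 h (difference 5.98, adjusted p = 1.64e-07). IFIT3, which joins IFIT1 in a complex, read 10.45, 10.31 and 8.95 at 24 h, against 4.18, 4.36 and 4.73 at 0 h (difference 5.48, adjusted p = 4.61e-08). The groups did not overlap for either gene. IFIT2, of the same family, read 9.48, 9.39 and 6.19 at 24 h, against 3.18, 3.59 and 3.46 at 0 h, a difference of 4.95 on all arrays and 6.03 without replicate 3.

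The promoters of IFIT1, IFI44L and IFIT3 are shown because these are the largest rises whose promoter holds the core of the interferon-stimulated response element (ISRE core, GAAANNGAA on either strand). They are RefSeq sequences of GRCh38.p14, from 250 bases before to 30 after the annotated start, and capitals mark the ISRE core. The IFIT1 promoter is chr10:89392373-89392652, plus strand, that of IFI44L chr1:78620198-78620477, plus strand, and that of IFIT3 chr10:89327747-89328026, plus strand.
IFIT1: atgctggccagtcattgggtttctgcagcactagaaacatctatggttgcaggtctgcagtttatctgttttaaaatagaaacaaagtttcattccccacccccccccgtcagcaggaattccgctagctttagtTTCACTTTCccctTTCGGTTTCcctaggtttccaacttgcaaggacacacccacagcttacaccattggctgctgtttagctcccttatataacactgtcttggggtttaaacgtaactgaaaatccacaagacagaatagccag
IFI44L: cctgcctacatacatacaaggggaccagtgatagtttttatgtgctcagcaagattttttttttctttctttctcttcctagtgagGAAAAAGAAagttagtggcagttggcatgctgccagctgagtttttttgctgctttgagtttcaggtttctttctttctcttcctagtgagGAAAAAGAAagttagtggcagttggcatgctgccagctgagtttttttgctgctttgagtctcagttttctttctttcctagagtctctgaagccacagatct
IFIT3: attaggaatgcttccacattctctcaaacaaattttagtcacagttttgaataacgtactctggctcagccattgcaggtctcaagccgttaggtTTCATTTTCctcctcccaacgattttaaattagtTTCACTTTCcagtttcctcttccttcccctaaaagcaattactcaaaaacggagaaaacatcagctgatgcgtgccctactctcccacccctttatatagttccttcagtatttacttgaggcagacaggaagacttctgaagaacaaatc
Counted from the annotated start, the matches began at -115 and -102 in IFIT1, at -164 and -73 in IFI44L, and at -155 and -121 in IFIT3. In IFI44L both matches have the same letters and lie in copies of a stretch that the window holds at each of them. The ISRE core was present in 23 of 33 antiviral effector promoters (69.7%), 10.1% of the promoters of genes that rose, 13.5% of those that rose at least 2-fold, 6.81% of those of genes that fell and 6.83% of all 14237 promoters. The STAT motif TTCNNNGAA (GAS) was in 10 of the 33 (30.3%, against 7.06% of all), the AP-1 motif in 12.1%, and the EGR motif in 0. Of the 15 largest rises 12 had a promoter in the table, and 5 of these held the core. In the same 12 promoters, 4 held a CHR, 3 the AP-1 motif, 3 the NF-kappaB motif and 1 the GAS. A match describes the letters and does not show that a factor bound there.

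Some antiviral effectors were called and others were not. The genes given here were picked after their values were seen. ISG15, the ubiquitin-like modifier, read 8.52, 7.90 and 5.76 at 24 h, against 4.68, 5.03 and 4.39 at 0 h, and OAS1, which makes the activator of the RNA-cutting enzyme RNase L, read 10.67, 10.32 and 9.13 at 24 h, against 7.25, 7.36 and 5.91 at 0 h. Both rose, by 2.70 (adjusted p = 0.00108) and 3.20 (adjusted p = 1.44e-05). MX2, a dynamin-like GTPase that blocks retroviruses, read 7.77, 7.42 and 4.08 at 24 h, against 3.28, 3.09 and 3.01 at 0 h and rose by 3.30. BST2, which tethers budding virus, rose by 1.67. MX1, the related GTPase, read 3.45, 3.20 and 3.19 at 24 h, against 3.24, 3.47 and 3.40 at 0 h, overlapping and not called (difference -0.09, adjusted p = 0.829). USP18, which removes ISG15 from proteins, read 3.91, 3.78 and 3.62 at 24 h, against 3.14, 3.35 and 3.29 at 0 h and was not called (difference 0.51, adjusted p = 0.248). MX1 at both times and USP18 at 0 h read near the lower quartiles of these arrays, 3.31 to 3.38, close to background. Their missing calls do not show that the genes did not respond. HERC5, OAS3, CMPK2, IFITM2 and IFITM3 gave differences from -0.35 to 0.63, with 0 of these 5 called. Of the list's genes, 37 of 40 were lower on replicate 3 of 24 h than on both other arrays of that time.

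Among the sensor and interferon genes, IFNB1, which encodes interferon beta, read 4.34, 4.85 and 2.85 at 24 h, against 2.48, 2.44 and 2.63 at 0 h. Replicates 1 and 2 of 24 h were clearly above 0 h and replicate 3 little above it. The 0 h mean was below the lower quartile of the 0 h arrays, close to background. The difference was 1.5 (SE 0.37, adjusted p = 0.0111) and 2.07 without replicate 3, and it was no longer called without replicates 1 or 2 of 24 h (adjusted p from 0.0574 to 0.0767). With only the 6 arrays compared its adjusted p was 0.0505. Against 12 h IFNB1 was not called (difference 1.41, adjusted p = 0.0729). RIGI, the sensor of viral RNA ends, read 10.61, 10.41 and 8.93 at 24 h, against 5.49, 4.42 and 4.50 at 0 h, a difference of 5.18 (SE 0.52, adjusted p = 3.83e-06). IFIH1, the sensor of long RNA duplexes, rose by 1.95, and EIF2AK2, the RNA-activated kinase that halts translation, by 1.86. Of 20 sensor and interferon genes 7 rose and 0 fell, with a list median of 0.38. For IFNB1, RIGI, IFIH1 and EIF2AK2 the groups did not overlap. RIGI, IFIH1 and EIF2AK2 were above 12 h by 4.37, 2.02 and 1.53. Whether these genes rose before the effectors was not tested.

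Of 19 JAK, STAT and SOCS genes, which carry and damp the interferon signal, 5 rose and 0 fell (median 0.43). STAT3, a transcription factor activated by JAK kinases, read 9.43, 9.25 and 8.67 at 24 h, against 6.41, 6.59 and 6.87 at 0 h, a difference of 2.49 (adjusted p = 1.33e-05), without overlap. The kinase genes JAK1 and JAK2 rose by 0.94 and 1.12. Of 8 interferon regulatory factors 4 rose and 0 fell (median 0.89). IRF1, an activator of antiviral and antigen presentation genes, read 8.59, 7.81 and 5.29 at 24 h, against 4.62, 3.79 and 4.90 at 0 h. Its replicate 3 was far below the other arrays of 24 h and little above 0 h, and the difference was 2.79 on all arrays (adjusted p = 0.00251) and 3.76 without it. IRF2, an antagonist of IRF1, rose by 2.21, IRF4, a factor of B cell and plasma cell fate, by 2.37, and IRF9, a factor of the interferon response, by 1.16. IRF7, picked after its values were seen, gave a difference of 0.02 (adjusted p = 0.967).

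Smaller interferon-linked families rose in part. Of 9 TRIM ubiquitin ligases 6 rose, 0 fell and the median was 1.62, with TRIM5, the capsid-binding restriction factor, at 8.58, 8.39 and 7.84 at 24 h, against 5.89, 5.64 and 5.77 at 0 h (difference 2.50, adjusted p = 1.71e-06). Of 8 PARP and partner genes 3 rose (median 0.23): PARP9 by 2.56, PARP14 by 2.07 and DTX3L, the ubiquitin ligase that pairs with PARP9, by 1.92. Of 6 APOBEC3 cytidine deaminases, which mutate viral DNA, 4 rose (median 1.54). APOBEC3B read 9.53, 9.48 and 8.32 at 24 h, against 4.18, 4.01 and 4.08 at 0 h, all arrays of 24 h lying more than 4 log2 units above 0 h (difference 5.02, adjusted p = 4.61e-08). APOBEC3F rose by 2.34, with 1.27 on its second probe set, and APOBEC3G rose by 1.87. Of 6 Schlafen genes SLFN5 rose by 4.73 and SLFN12 by 0.85 (median 0.21); SLFN12 was no longer called without replicates 1 or 2 of 24 h or replicate 1 of 0 h (adjusted p from 0.0602 to 0.0848). Of 6 guanylate-binding proteins, GTPases that attack intracellular microbes, 3 rose, GBP2 by 3.64, GBP3 by 2.04 and GBP5 by 4.00 (median 1.57). The 0 h means of these 3 were below the lower quartile of the 0 h arrays, so their differences are not exact sizes. GBP5 read 8.87, 8.59 and 3.00 at 24 h, against 2.75, 2.87 and 2.83 at 0 h. Replicate 3 of 24 h was close to the arrays of 0 h there. The difference was 5.91 without it (adjusted p = 0.000754), and it was no longer called without replicates 1 or 2 of 24 h or replicates 1, 2 or 3 of 0 h (adjusted p from 0.0939 to 0.221).

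**Figure D2:**
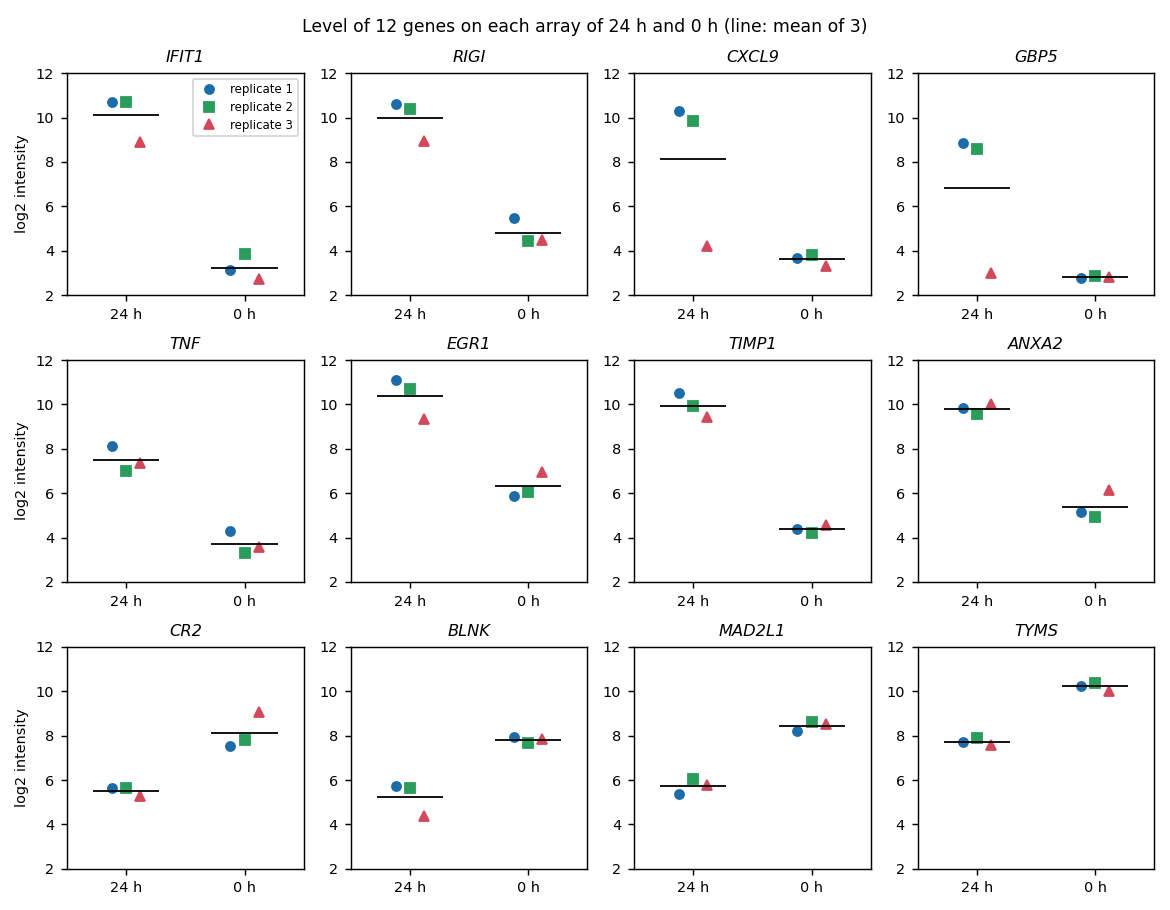
Level (y axis, log2 intensity) of 12 genes on the 3 arrays of 24 h (left in each panel) and the 3 arrays of 0 h (right); each point is 1 array, with its shape and colour marking the replicate, and the line is the mean of 3. CXCL9 and GBP5 on replicate 3 of 24 h, at 4.20 and 3.00, were near the arrays of 0 h, whereas ANXA2, MAD2L1 and TYMS spanned less than 0.8 log2 units on the 3 arrays of 24 h.

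Some chemokine ligands, which attract immune cells, rose. Of 23 chemokine ligands 7 rose and 0 fell, with a median of 0.28. CXCL10, a ligand of CXCR3 on T cells, read 11.09, 10.91 and 9.15 at 24 h, against 7.02, 4.70 and 6.72 at 0 h, without overlap (difference 4.23, adjusted p = 0.000131). CXCL9, another CXCR3 ligand, read 10.30, 9.84 and 4.20 at 24 h, against 3.69, 3.81 and 3.33 at 0 h. Replicate 3 lay 5 log2 units and more below the others of its group and less than 1 above 0 h. The difference was 4.50 on all arrays (adjusted p = 0.0192) and 6.46 without replicate 3 of 24 h (adjusted p = 0.000143), and it was no longer called without replicates 1 or 2 of 24 h or replicates 1, 2 or 3 of 0 h (adjusted p from 0.0508 to 0.119). CCL5, which draws T cells and monocytes, read 9.56, 8.95 and 5.54 at 24 h, against 4.61, 4.02 and 4.25 at 0 h (difference 3.72, adjusted p = 0.00317). Among 14 lymphocyte homing receptors 1 rose and 4 fell, and 2 rose and 3 fell without replicate 3 of 24 h (median -0.11). On all arrays the 1 rise is near the 6.74% of all genes called higher, and 5.74% of all were called lower. CCR7, the lymph node homing receptor, read 10.21, 9.65 and 8.08 at 24 h, against 5.67, 4.69 and 7.93 at 0 h and rose by 3.21, replicate 3 of 24 h lying just above replicate 3 of 0 h. ACKR4, a scavenger of CCR7 ligands, fell by 2.93 on 1 probe set and read -0.78 on its second, and GPR183, an oxysterol receptor that positions B cells, fell by 1.89.

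Of 29 TNF ligands and receptors 7 rose and 3 fell, and 7 rose and 2 fell without replicate 3 of 24 h (median 0.26). TNF read 8.15, 7.0 and 7.35 at 24 h, against 4.28, 3.31 and 3.59 at 0 h, without overlap (difference 3.77, SE 0.31, adjusted p = 4.03e-07). Its relative LTA rose by 2.88, and TNFRSF9, a co-stimulatory receptor of activated lymphocytes, read 9.25, 8.88 and 8.05 at 24 h, against 4.09, 3.50 and 4.49 at 0 h, a difference of 4.70 (adjusted p = 1.64e-07). TNFSF10, the death ligand TRAIL, read 9.88, 9.56 and 6.05 at 24 h, against 5.34, 5.22 and 4.68 at 0 h (difference 3.42), and it was no longer called without replicates 1 or 2 of 24 h or replicate 3 of 0 h (adjusted p from 0.0554 to 0.0963). Its receptor TNFRSF10B rose by 1.72. TNFRSF17, the plasma cell receptor BCMA, fell by 1.18. Its 24 h mean of 2.73 was below the lower quartile of the 24 h arrays, close to background, so the difference is not an exact size. Of 29 interleukin and interleukin receptor genes 7 rose and 1 fell, and 10 rose and 1 fell without replicate 3 of 24 h (median 0.29). IL2RA, a chain of the interleukin-2 receptor, rose by 1.85, IL10RA by 1.15, and IL7R fell by 1.36. Among 15 costimulatory and checkpoint ligands (median 0.28), CD83, an activation marker, rose by 1.76, CD48 fell by 1.65, and CD274, the checkpoint ligand PD-L1, read 8.22, 8.25 and 5.67 at 24 h, against 3.37, 3.99 and 6.09 at 0 h. The CD274 groups overlapped, since replicate 3 of 0 h was above replicate 3 of 24 h (difference 2.90, adjusted p = 0.00746).

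Of 20 NF-kappaB subunits, inhibitors and partners 8 rose and 0 fell (median 0.45). The inhibitor NFKBIA read 9.54, 9.61 and 8.43 at 24 h, against 7.18, 6.95 and 7.42 at 0 h (difference 2.01, adjusted p = 0.000487), and TNFAIP3, the ubiquitin editor A20 that shuts the pathway off, rose by 2.31. The adaptor TRAF1 rose by 2.27 and TNIP2 by 1.48. Of 21 adhesion genes 7 rose and 2 fell (median 0.41). VCAM1, a ligand of leukocyte integrins, read 6.52, 6.96 and 4.19 at 24 h, against 3.35, 3.52 and 3.15 at 0 h and rose by 2.55. The integrin chains ITGAX and ITGAV rose by 1.84 and 1.17. ICAM1, another integrin ligand, read 8.25, 7.54 and 5.44 at 24 h, against 5.13, 4.51 and 5.94 at 0 h, overlapping, with a difference of 1.89 (adjusted p = 0.0166), and it was no longer called without replicates 1 or 2 of 24 h or replicates 1 or 2 of 0 h (adjusted p from 0.0512 to 0.111). In MHC class I antigen processing 3 of 15 genes rose and 1 fell, and 5 rose and 0 fell without replicate 3 of 24 h (median 0.32). TAP1, the peptide transporter, read 9.38, 8.78 and 6.92 at 24 h, against 6.19, 6.52 and 6.14 at 0 h, a difference of 2.08 (adjusted p = 0.00352). PSMB8, a subunit of the immunoproteasome, rose by 1.46, and it was no longer called without replicates 1 or 2 of 24 h or replicate 1 of 0 h (adjusted p from 0.0644 to 0.114). Of 14 MHC class II genes and regulators 2 rose and 1 fell, and 3 rose and 0 fell without replicate 3 of 24 h (median 0.31), HLA-DMB by 1.04 and HLA-DQA1 by 0.75. On all arrays the 1 fall in each MHC list is near the 5.74% of all genes called lower. HLA-DMB was no longer called without replicates 1 or 2 of 24 h or replicate 3 of 0 h (adjusted p from 0.0676 to 0.094), and HLA-DQA1 was no longer called without replicates 1 or 2 of 24 h or replicate 2 of 0 h (adjusted p from 0.055 to 0.12). RFXAP, a factor of class II promoters, fell by 0.48, and it was no longer called without replicates 1 or 3 of 24 h or replicates 1 or 3 of 0 h (adjusted p from 0.0821 to 0.0982).

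Some genes known to respond to protein kinase C and ERK rose. EGR1, an immediate early zinc finger factor, read 11.08, 10.70 and 9.33 at 24 h, against 5.89, 6.05 and 6.98 at 0 h, without overlap (difference 4.07, SE 0.33, adjusted p = 4.03e-07). Of 21 immediate early factors 7 rose and 0 fell, with a median of 0.20. FOS, of the AP-1 dimer, read 7.26, 6.89 and 5.30 at 24 h, against 4.80, 3.65 and 4.42 at 0 h (difference 2.19), and JUNB, its partner, read 8.18, 7.75 and 6.11 at 24 h, against 5.75, 5.90 and 5.85 at 0 h (difference 1.51). Both were lowest on replicate 3 among the arrays of 24 h, and JUNB was no longer called without replicate 1 of 24 h (adjusted p = 0.0588). Of 14 ERK feedback genes, phosphatases and adaptors that damp the kinase, 7 rose and 0 fell (median 0.68), among them DUSP5 by 2.16, DUSP1 by 2.19, DUSP10 by 2.18 and SPRED2 by 1.82. Of 15 Kruppel-like factors 3 rose, against 6.74% of all genes called higher, with a median of -0.024. They were KLF6 by 1.79, KLF10 by 1.13 and KLF3 by 0.88. KLF10 was no longer called without replicates 1 or 2 of 24 h (adjusted p from 0.0585 to 0.0607). Of 18 protein kinase C and RASGRP genes 4 rose and 3 fell (median 0.22). The diacylglycerol-responsive exchange factor RASGRP3 read 7.06, 7.13 and 7.33 at 24 h, against 9.38, 9.15 and 9.46 at 0 h, without overlap (difference -2.15, adjusted p = 3.62e-05), and RASGRP1 fell by 1.20. DGKA, a kinase that removes diacylglycerol, rose by 1.28, and the kinase gene PRKD2 by 1.56. Among 13 regulators of G protein signalling RGS2 and RGS16 rose by 1.72 and 1.17 and 2 fell (median -0.03), RGS13, described with the germinal centre genes, and RGS18, whose means of 2.54 at 24 h and 3.31 at 0 h both lay below the lower quartile of their arrays, close to background.

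Most listed genes of DNA replication and mitosis fell. Of 51 replication licensing and fork genes 37 fell and 1 rose, against 5.74% of all genes called lower, with a list median of -1.15 and 34 lower without replicate 3 of 24 h. PCLAF, a partner of the sliding clamp PCNA, read 5.58, 5.77 and 5.71 at 24 h, against 8.60, 8.66 and 8.11 at 0 h, without overlap (difference -2.77, SE 0.33, adjusted p = 1.8e-05, 6.84-fold lower). Its second probe set read -0.75. DNA2, a nuclease and helicase that processes replication intermediates, fell by 2.60 (SE 0.20, adjusted p = 2.33e-07). MCM4, of the replicative helicase, read 5.98, 6.12 and 6.06 at 24 h, against 8.36, 8.49 and 7.25 at 0 h (difference -1.98), and GINS2, a part of the active helicase, fell by 1.96. Of 25 nucleotide synthesis enzymes 15 fell and 1 rose, and 11 fell and 1 rose without replicate 3 of 24 h (median -0.75). TYMS, which makes thymidylate, read 7.73, 7.90 and 7.57 at 24 h, against 10.25, 10.39 and 10.02 at 0 h (difference -2.48, adjusted p = 7.62e-06). RRM1, the large subunit of ribonucleotide reductase, fell by 1.67, and the salvage kinase DCK by 2.0. The spread between the arrays of 24 h was under 0.8 log2 units for these named genes.

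Of 19 E2F and retinoblastoma family genes, with the DREAM and B-MYB subunits, 10 fell and 1 rose, and 9 fell and 0 rose without replicate 3 of 24 h (median -0.71). The transcription factors of the G2 and mitosis programme FOXM1 and MYBL2 read 6.11, 5.93 and 6.58 at 24 h, against 7.80, 8.49 and 8.16 at 0 h for FOXM1 and 6.12, 5.97 and 6.28 at 24 h, against 7.96, 8.56 and 7.80 at 0 h for MYBL2. Both fell without overlap, by 1.94 and 1.99. LIN9, a DREAM subunit, fell by 2.01, and E2F8, a repressor of the E2F family, by 1.62. Of 38 cyclins, kinases and checkpoint genes 27 fell and 0 rose, with a median of -1.17, and 25 fell without replicate 3 of 24 h. MAD2L1, of the spindle checkpoint, read 5.35, 6.05 and 5.76 at 24 h, against 8.21, 8.62 and 8.53 at 0 h (difference -2.73, SE 0.21, adjusted p = 1.81e-07, 6.65-fold lower), without overlap. CDK1, the mitotic kinase, read 5.04, 5.60 and 4.52 at 24 h, against 7.36, 7.95 and 7.47 at 0 h (difference -2.54). PLK4, the kinase of centriole duplication, fell by 2.24, and BIRC5, the survivin gene of the chromosomal passenger complex, by 2.51, with -1.52 on its second probe set. PBK, a mitotic kinase gene outside the list, fell by 2.47.

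The promoters of PCLAF and MAD2L1 are shown because these genes had the largest falls of the replication list with an E2F core (TTTCCCGC or TTTGGCGC on either strand) and of the cyclin and checkpoint list with a CHR (TTTGAA on either strand). Capitals mark the E2F core in PCLAF and the CHR in MAD2L1. The window is as above, chr15:64381412-64381691, minus strand, for PCLAF, and chr4:120066819-120067098, minus strand, for MAD2L1.
PCLAF: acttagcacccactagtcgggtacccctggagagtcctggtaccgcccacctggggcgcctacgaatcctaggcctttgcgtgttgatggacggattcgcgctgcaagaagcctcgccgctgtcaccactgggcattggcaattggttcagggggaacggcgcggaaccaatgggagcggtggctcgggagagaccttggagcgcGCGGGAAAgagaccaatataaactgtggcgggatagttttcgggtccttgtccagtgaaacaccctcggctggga
MAD2L1: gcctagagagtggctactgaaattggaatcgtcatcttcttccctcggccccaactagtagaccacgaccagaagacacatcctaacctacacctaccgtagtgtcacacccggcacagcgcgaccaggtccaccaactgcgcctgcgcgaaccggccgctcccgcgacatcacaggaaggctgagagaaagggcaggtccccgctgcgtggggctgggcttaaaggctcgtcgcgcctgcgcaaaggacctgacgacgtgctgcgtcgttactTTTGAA
The E2F core of PCLAF began at -45, and the CHR of MAD2L1 at base 25 after the start. The E2F core was present in 16 of 44 replication promoters (36.4%), with the NF-kappaB motif in 18.2% and the EGR motif in 20.5% of the same 44. The E2F core was in 8.88% of the promoters of genes that fell, 10.7% of those that fell at least 2-fold, 1.96% of those of genes that rose and 3% of all. The CHR was present in 16 of 28 cyclin and checkpoint promoters (57.1%), with the EGR motif in 17.9% and the E2F core in 3.57% of the same 28. The CHR was in 20.2% of the promoters of genes that fell, 25.1% of those that fell at least 2-fold, 11.1% of those of genes that rose and 12.3% of all. For comparison, the AP-1 motif TGANTCA was in 7.62% of promoters of genes that rose, 4.15% of those of genes that fell and 5.85% of all. The EGR motif GCGNGGGCG was in 15.9% of those of genes that rose, 12.7% of those of genes that fell and 12.7% of all. The NF-kappaB motif GGGNNTTTC was in 5.18% of those of genes that rose, 5.54% of those of genes that fell and 4.82% of all. The STAT motif TTCNNNGAA (GAS) was in 7.92% of those of genes that rose, 7.27% of those of genes that fell and 7.06% of all. Among the 15 largest falls 11 had a promoter in the table. A CHR was in 5 of these, the E2F core in 2, and the ISRE core, EGR and NF-kappaB motifs in 1 each. Matches to different motifs can share bases, and a promoter was counted for each motif it held.

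**Figure D3:**
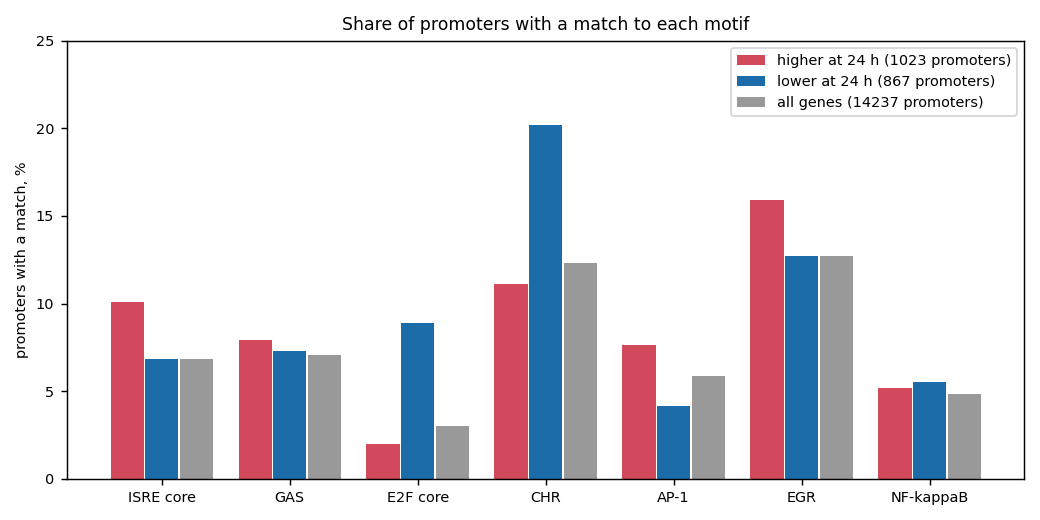
Share of promoters (y axis, %) that hold at least 1 match to each motif on either strand, for genes called higher at 24 h (red), genes called lower at 24 h (blue) and all genes (grey). The ISRE core was at 10.1% among genes that rose and 6.83% among all, and the CHR at 20.2% among genes that fell and 12.3% among all.

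The machinery that moves chromosomes showed the same direction. Of 32 centromere and kinetochore genes 22 fell and 0 rose, and 18 fell without replicate 3 of 24 h (median -1.12). CENPK of the inner kinetochore read 5.84, 6.59 and 6.54 at 24 h, against 8.71, 8.92 and 8.35 at 0 h (difference -2.34, adjusted p = 3.75e-05). SPC25 of the microtubule-binding NDC80 complex fell by 2.14. Of 14 mitotic kinesins 9 fell and 0 rose, and 6 fell without replicate 3 of 24 h (median -1.10), KIF15 by 2.25 and KIF20A by 2.02. Of 22 condensin, cohesin and topoisomerase genes 14 fell and 0 rose, and 11 fell without replicate 3 of 24 h (median -0.78). SMC2, a condensin core subunit, read 8.20, 8.41 and 8.45 at 24 h, against 9.90, 9.78 and 9.81 at 0 h (difference -1.48). Of 28 homologous recombination and Fanconi repair genes 16 fell and 0 rose, and 14 fell without replicate 3 of 24 h (median -0.94). The exonuclease gene EXO1 fell by 2.01 and BRCA1 by 1.72. Of 45 replication-dependent histone genes 10 fell and 1 rose, and 4 fell and 1 rose without replicate 3 of 24 h (median -0.43). Their medians on the 3 arrays of 24 h were 0.016, -0.41 and -1.05 relative to the 0 h mean, and 42 of 45 were lowest on replicate 3. H2BC14 read 5.14, 4.57 and 4.48 at 24 h, against 7.02, 7.38 and 6.79 at 0 h (difference -2.33). Near-identical histone genes can share signal on such probes. Of 11 CDK inhibitors and D-type cyclins 2 rose and 1 fell (median -0.007). CDKN1A, the inhibitor p21, rose by 1.31, CDKN2B by 0.86, and CDKN2A fell by 0.90; CDKN1A was no longer called without replicate 1 of 24 h (adjusted p = 0.0521).

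Genes of B cell identity and signalling fell in part. Of 22 B cell receptor signalling genes 6 fell and 2 rose (median -0.78). CR2, the complement receptor that serves Epstein-Barr virus as its entry receptor, read 5.62, 5.66 and 5.26 at 24 h, against 7.55, 7.79 and 9.07 at 0 h, without overlap (difference -2.62, SE 0.41, adjusted p = 0.000303). BLNK, the linker from the receptor to downstream enzymes, read 5.72, 5.63 and 4.36 at 24 h, against 7.94, 7.65 and 7.86 at 0 h (difference -2.58, adjusted p = 1.8e-05). Its replicate 3 was lower than the other arrays of 24 h. BTK, the kinase of the receptor pathway, read 5.85, 5.71 and 5.40 at 24 h, against 7.46, 7.61 and 7.30 at 0 h (difference -1.80), and PTPN6, a phosphatase that dampens the receptor, rose by 1.73. Of 16 germinal centre genes 7 fell and 0 rose (median -0.89). RGS13, a G protein regulator of germinal centre B cells, read 6.5, 7.03 and 7.0 at 24 h, against 10.12, 9.84 and 9.70 at 0 h (difference -3.04, SE 0.49, adjusted p = 0.000389). MYBL1, a factor of dividing germinal centre cells, fell by 1.63, and GCSAM, a signalling adaptor, by 2.09. CD38, an enzyme of the cell surface, fell by 1.19, and it was no longer called without replicates 2 or 3 of 24 h or replicates 1, 2 or 3 of 0 h (adjusted p from 0.0522 to 0.259).

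Of 19 B cell transcription factors 3 fell and 2 rose, and 3 fell and 1 rose without replicate 3 of 24 h (median 0.11). After quantile normalization 6 fell and 2 rose, and with the array medians set equal 5 fell and 2 rose. IKZF3 and ETS1, lymphoid factors, fell by 1.44 and 1.34, and the inhibitors of helix-loop-helix factors ID2 and ID3 rose by 1.51 and 1.05. ID3 was no longer called without replicates 2 or 3 of 24 h or replicates 1, 2 or 3 of 0 h (adjusted p from 0.0684 to 0.0907). Of 13 plasma cell genes 4 fell and 0 rose (median -0.48). JCHAIN, the joining chain of secreted IgM and IgA, read 9.33, 9.52 and 9.87 at 24 h, against 10.90, 10.77 and 10.85 at 0 h (difference -1.27), and it was no longer called without replicate 1 of 24 h (adjusted p = 0.0557). MZB1, a chaperone of antibody secretion, fell by 1.14. Among 20 Fc receptor-like, SLAM and lectin receptors 4 rose and 4 fell, and 4 rose and 2 fell without replicate 3 of 24 h (median 0.08). CD84, a SLAM-family receptor, read 5.55, 5.45 and 5.38 at 24 h, against 7.79, 7.64 and 8.06 at 0 h (difference -2.37), and CLEC2D, a lectin ligand of NK cells, fell by 1.88. SLAMF7 rose by 2.24. CD69, an early activation marker, read 9.45, 9.40 and 6.78 at 24 h, against 6.34, 6.47 and 5.57 at 0 h (difference 2.41), and it was no longer called without replicates 1 or 2 of 24 h or replicates 1, 2 or 3 of 0 h (adjusted p from 0.0691 to 0.168). Of 14 Toll-like receptors and adaptors 2 rose and 2 fell (median 0.023), TASL, an adaptor of endosomal Toll-like receptors, by 1.20. Over all genes, 6.74% were called higher and 5.74% lower.

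The largest falls of single genes lay partly outside these lists. RASSF6, a Ras-association gene, read 4.17, 4.23 and 4.53 at 24 h, against 7.72, 7.16 and 8.16 at 0 h (difference -3.38, SE 0.34, adjusted p = 3.83e-06, 10.4-fold lower). SPARCL1, a secreted matrix protein related to SPARC, read 5.75, 5.87 and 5.63 at 24 h, against 8.91, 8.92 and 8.97 at 0 h (difference -3.18, adjusted p = 9.2e-09). CADPS, a factor of vesicle release, read 3.64, 3.81 and 3.93 at 24 h, against 6.63, 6.56 and 7.30 at 0 h (difference -3.04). The 24 h arrays spanned under 0.4 log2 units in each of the 3 genes. Their groups did not overlap, as the choice of the largest falls required. OR13A1, named as an olfactory receptor, fell by 2.51.

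Matrix and membrane-binding genes were among the largest rises. TIMP1, an inhibitor of matrix metalloproteinases, read 10.51, 9.91 and 9.42 at 24 h, against 4.37, 4.18 and 4.57 at 0 h (difference 5.57, SE 0.37, adjusted p = 6.14e-08). SPP1, the secreted phosphoprotein osteopontin, read 7.30, 7.63 and 8.13 at 24 h, against 3.70, 3.32 and 2.88 at 0 h (difference 4.38). MMP13, a collagenase, rose by 2.22. Of 19 matrix metalloproteinase, TIMP and secreted matrix genes 5 rose and SPARCL1 fell (median 0.13). ANXA2, a calcium-dependent membrane-binding protein, read 9.84, 9.57 and 10.04 at 24 h, against 5.13, 4.90 and 6.12 at 0 h (difference 4.43, SE 0.34, adjusted p = 2.26e-07), without overlap, and its binding partner S100A10 read 6.63, 6.26 and 7.92 at 24 h, against 4.30, 4.45 and 4.76 at 0 h (difference 2.44). Replicate 3 was the highest array of 24 h for SPP1, ANXA2 and S100A10. Of 13 annexins and S100 proteins 5 rose and 0 fell (median 0.58), and 8 of 13 were highest at 24 h on replicate 3.

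Of 30 lysosome and autophagy genes 8 rose and 0 fell (median 0.48). SQSTM1, the autophagy receptor p62, read 9.30, 8.82 and 8.73 at 24 h, against 5.53, 5.76 and 6.58 at 0 h, without overlap (difference 2.99, adjusted p = 9.01e-06). NEU1, a lysosomal sialidase, rose by 2.20 and GPNMB, a glycoprotein of lysosomes, by 2.27. Of 25 cholesterol synthesis and uptake genes 6 rose and 0 fell (median 0.082). NPC1, which exports cholesterol from lysosomes, read 8.33, 8.45 and 7.88 at 24 h, against 5.33, 5.45 and 5.84 at 0 h (difference 2.68), its partner NPC2 rose by 1.24, and INSIG1, a sterol-sensing retention factor, by 1.49. Of 22 NRF2 and antioxidant genes 8 rose and 1 fell (median 0.46). SRXN1, which repairs peroxiredoxins, read 6.93, 7.44 and 7.51 at 24 h, against 4.47, 5.16 and 5.14 at 0 h (difference 2.37), and the quinone reductase NQO1 rose by 1.45. Of 10 metallothioneins, metal-binding proteins, 3 rose and 0 fell, and 5 rose without replicate 3 of 24 h (median 0.58). MT2A read 11.67, 11.54 and 10.98 at 24 h, against 8.44, 8.49 and 9.46 at 0 h (difference 2.60), a gene whose probes may share signal with close relatives. Of 23 glucose transport and glycolysis genes 5 rose and 1 fell, and 3 rose and 1 fell without replicate 3 of 24 h (median 0.18), and SLC2A3, a glucose transporter, read 11.13, 11.05 and 10.21 at 24 h, against 5.86, 5.70 and 7.89 at 0 h (difference 4.32). PKM, the last kinase of glycolysis, rose by 1.19. Of 17 amino acid transporters SLC36A1 rose by 1.39 and SLC38A5 fell by 0.95 (median -0.025), 1 gene each way, close to the 6.74% and 5.74% of all genes called higher and lower.

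In protein folding, 4 of 15 endoplasmic reticulum chaperones fell and 0 rose, and 2 fell without replicate 3 of 24 h (median -0.32), HSPA5, the main chaperone there, by 0.90 and MANF, a secreted stress factor, by 1.25. Of 17 heat shock proteins 3 rose and 2 fell (median -0.12), against 6.74% and 5.74% of all genes. BAG3, a co-chaperone, was higher by 1.41 and the mitochondrial chaperone HSPE1 lower by 1.11. HSPE1 was no longer called without replicates 1 or 2 of 24 h or replicate 2 of 0 h (adjusted p from 0.0504 to 0.0768). Of 18 integrated stress response genes 1 rose, and 2 rose without replicate 3 of 24 h, near the 6.74% of all genes called higher (median 0.038). The 1 on all arrays was DDIT3, the factor CHOP, at 8.76, 8.83 and 7.96 at 24 h, against 5.13, 5.12 and 7.74 at 0 h, where replicate 3 of 0 h lay near the arrays of 24 h (difference 2.52, adjusted p = 0.00328). In apoptosis, 4 of 17 BCL2 family genes rose and 0 fell (median 0.30). The survival gene BCL2A1 read 9.81, 9.88 and 9.26 at 24 h, against 5.75, 6.19 and 7.42 at 0 h (difference 3.19), MCL1, another survival gene, rose by 1.24, and BAK1, which permeabilizes mitochondria, by 1.73. Of 15 caspases and inhibitors 3 rose, and 1 rose without replicate 3 of 24 h (median 0.20), CASP8, the initiator caspase of death receptors, by 1.47. Of 21 p53 and target genes 4 rose and 3 fell (median 0.028), against 6.74% and 5.74% of all genes. Without replicate 3 of 24 h, 4 rose and 2 fell. RRM2B, a ribonucleotide reductase subunit, fell by 1.62.

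In chromatin and growth control, 1 of 11 histone deacetylases rose (median 0.01), HDAC3 by 1.34, which is near the 6.74% of all genes called higher. HDAC3 was no longer called without replicate 3 of 24 h or replicate 1 of 0 h (adjusted p from 0.0623 to 0.081). Of 15 DNA methylation and Polycomb genes 5 fell and 1 rose (median -0.15). HELLS, a remodeller needed for DNA methylation, fell by 1.59, the histone-binding protein RBBP4 by 1.51 and EZH2, the Polycomb methyltransferase, by 0.72; EZH2 was no longer called without replicate 1 of 0 h (adjusted p = 0.0522). TET2, a methylcytosine oxidase, rose by 1.09, with 0.47 on its second probe set, and it was no longer called without replicate 2 of 0 h (adjusted p = 0.0582). Of 35 MYC network and ribosome biogenesis genes 9 fell and 1 rose (median -0.35). MYC, whose translocation marks Burkitt lymphoma and which was picked here after its values were seen, read 5.67, 5.60 and 5.39 at 24 h, against 6.74, 6.58 and 5.88 at 0 h, without overlap (difference -0.85, adjusted p = 0.00844). MXD1, a MYC antagonist, rose by 1.34, and UTP20, of ribosomal RNA processing, fell by 1.26. Of 29 cytosolic ribosomal proteins 0 were called (median -0.20), against 12.5% of all genes. RPL23 had a difference of -0.68 (adjusted p = 0.0533).

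Gene groups differed in how replicate 3 of 24 h compared with replicates 1 and 2. Relative to the 0 h mean, the antiviral effectors had medians of 3.22, 2.70 and 1.16 on replicates 1, 2 and 3 of 24 h, and the interferon regulatory factors 1.56, 0.85 and 0.60. NF-kappaB genes had 0.79, 0.67 and 0.15, guanylate-binding proteins 2.26, 1.92 and 0.55 and MHC class I processing genes 0.53, 0.40 and -0.023. In each of these 5 lists replicate 3 was the lowest. Lists of cell division were not all alike in this. Cyclins, kinases and checkpoint genes had -1.0, -0.96 and -1.43, with 28 of 38 lowest on replicate 3, and kinesins -1.05, -0.71 and -1.40, with 13 of 14 lowest there. Replication genes had -1.15, -1.09 and -1.21, centromere genes -1.17, -1.06 and -1.14, nucleotide synthesis enzymes -0.71, -0.71 and -0.78 and lysosome genes 0.47, 0.36 and 0.47, so that in these 4 lists the 3 arrays lay within 0.2 log2 units. Germinal centre genes, at -0.44, -0.86 and -1.30, and B cell receptor genes, at -0.35, -0.42 and -0.92, were lowest on replicate 3. Over all genes the medians were -0.01, -0.004 and -0.015. The spread of values within replicate 3 was narrower, with an interquartile range of 2.76 against 3.16 and 3.09 on replicates 1 and 2 of 24 h and 2.74 to 3.00 at 0 h. Its part in the results was not tested, and with the interquartile range as a covariate 2765 genes were called.

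**Figure D4:**
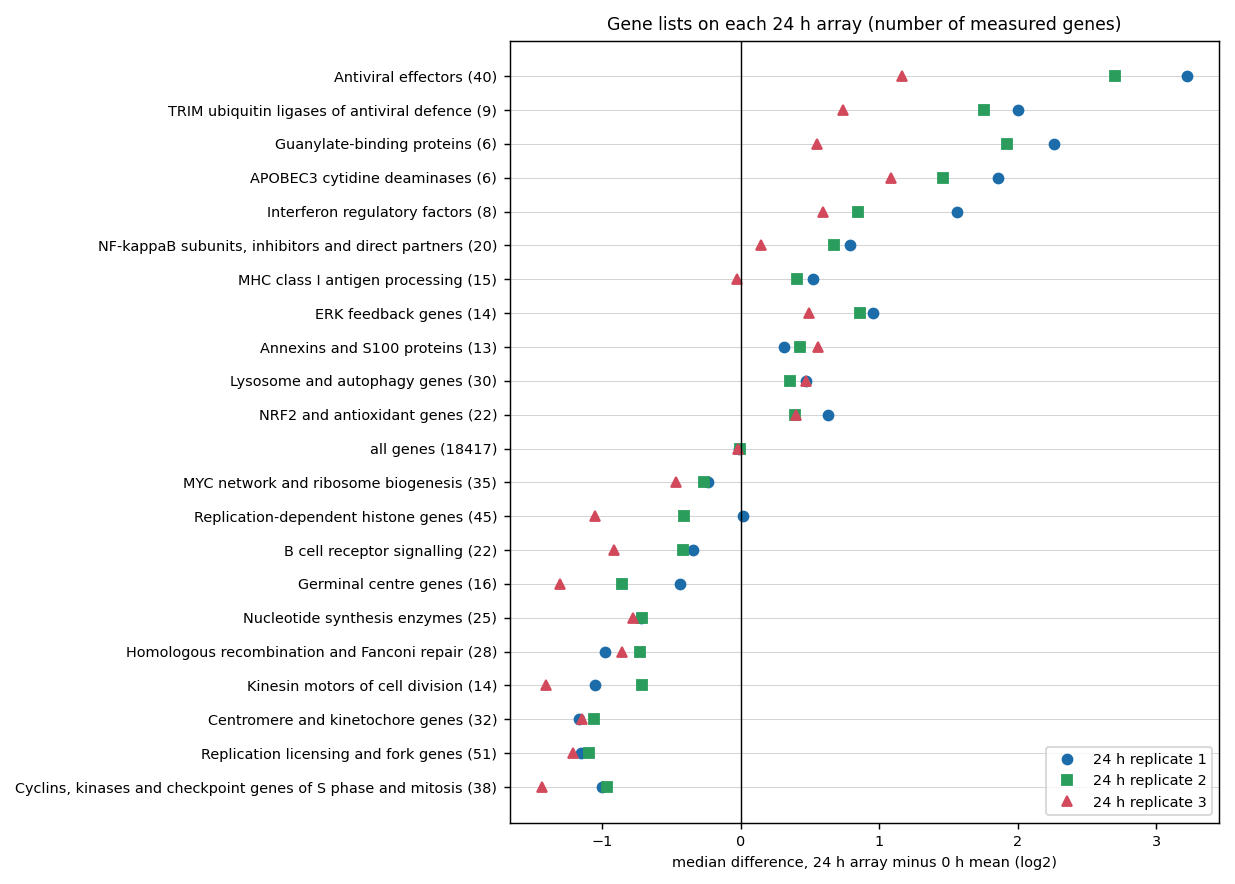
Median over the measured genes of each list (number in brackets) of the difference between 1 array of 24 h and the mean of the 3 arrays of 0 h (x axis, log2); circles are replicate 1, squares replicate 2 and triangles replicate 3 of 24 h. Triangles lie left of the other symbols for the antiviral effectors, at 1.16, and beside them for replication genes, at -1.21.

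Set against the time before it, 24 h differed from 12 h in 252 genes (1.37%), 150 higher (0.814%) and 102 lower (0.554%). This comparison and the comparison with 0 h share the arrays of 24 h. Antiviral effectors made up 23 of the higher genes, 23 of 40 measured. IFIT1 read 10.10 ± 1.04 at 24 h and 3.83 ± 0.21 at 12 h (SD, n = 3 each), a difference of 6.27 (adjusted p = 1.87e-07), against 6.86 for 24 h minus 0 h. CXCL10 was higher than at 12 h by 6.23 and higher than at 0 h by 4.23, its mean being 4.15 ± 0.11 at 12 h and 6.15 ± 1.26 at 0 h (SD, n = 3 each). TIMP1 and APOBEC3B were above 12 h by 2.75 and 2.86 (adjusted p = 0.000636 and 0.000131). EGR1 differed from 12 h by 0.20 (adjusted p = 0.886), ANXA2 by 0.69 (adjusted p = 0.477) and NPC1 by -0.04 (adjusted p = 0.973), and none of these 3 passed. Among genes that fell against 0 h, CR2, BLNK and RASSF6 differed from 12 h by 0.44, -0.01 and -0.06 (adjusted p = 0.768, 0.997 and 0.972). DNA2, BIRC5 and MAD2L1 were lower than at 12 h (log2 differences -1.71, -1.68 and -1.14, adjusted p = 0.000161, 0.00189 and 0.0064). Of the 38 cyclins, kinases and checkpoint genes 10 were lower than at 12 h, and of 51 replication genes also 10. Without replicate 1 or 2 of 24 h, 105 and 148 genes were called between 24 h and 12 h, and without replicate 1, 2 or 3 of 12 h 114, 153 and 135. Without replicate 3 of 24 h, 252 were higher and 83 lower, and with array weights 735 were higher and 364 lower. Without 1 array of 24 h or 12 h, 16 to 25 of the antiviral effectors were higher, 3 to 9 of the cyclins, kinases and checkpoint genes lower and 2 to 8 of the replication genes lower. The lowest counts were 16 without replicate 1 or 2 of 24 h for the antiviral effectors, 3 without replicate 3 of 12 h for the cyclins, and 2 without replicate 1 of 24 h or replicate 3 of 12 h for the replication genes.

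**Figure D5:**
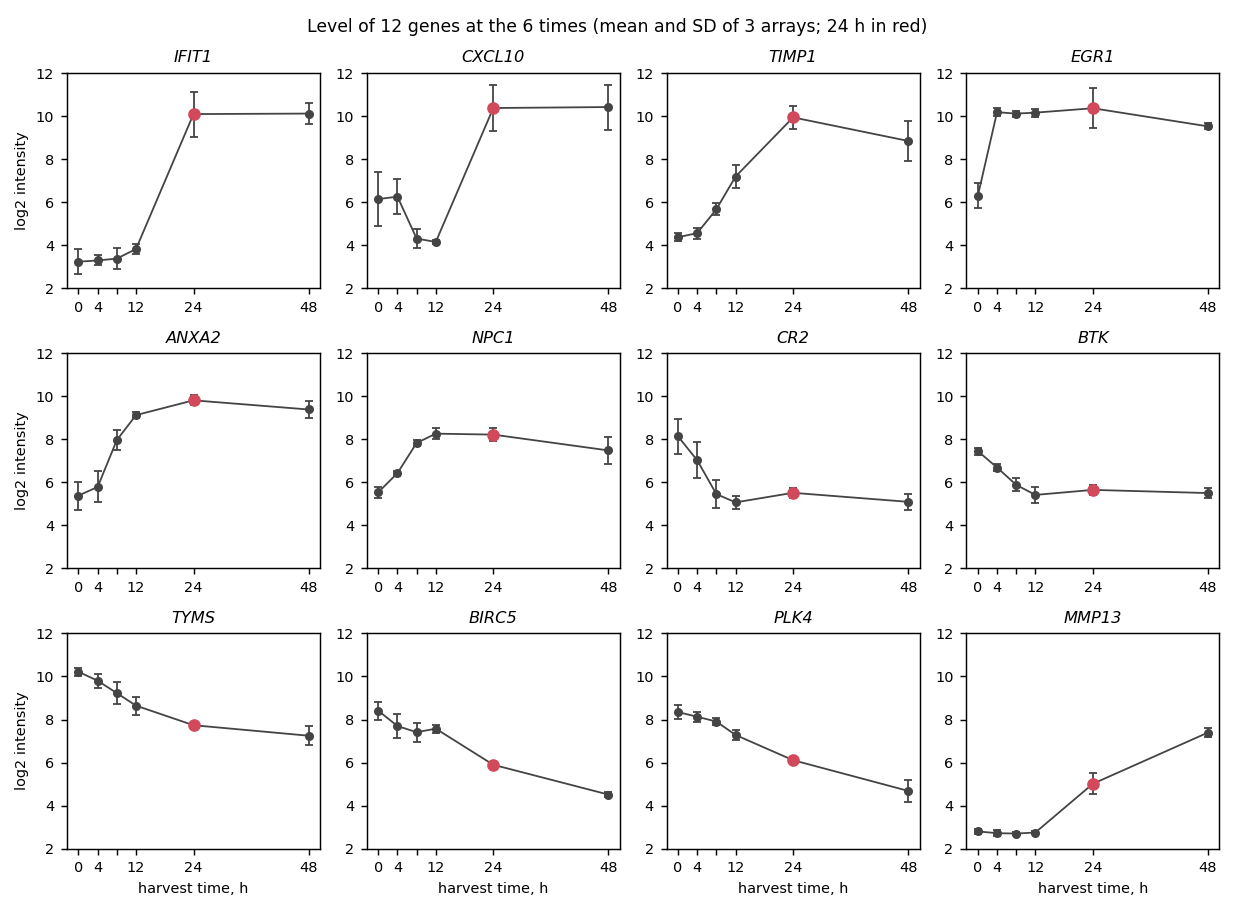
Mean level (y axis, log2 intensity) of 12 genes at 0, 4, 8, 12, 24 and 48 h (x axis); bars are the SD of 3 arrays, and the red point is 24 h. IFIT1 and CXCL10 were higher at 24 h than at 12 h, EGR1 and NPC1 were not called between 12 h and 24 h, and PLK4 and BIRC5 were lower at 48 h than at 24 h.

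Between 48 h and 24 h, 74 genes differed (0.402%), 13 higher (0.0706%) and 61 lower (0.331%) at 48 h. This comparison too shares the arrays of 24 h. Of the 40 antiviral effectors 1 was higher at 48 h than at 24 h, HERC5, picked after its values were seen, by 1.95 (adjusted p = 0.0314), and 0 were lower. With only the 6 arrays compared HERC5 had an adjusted p of 0.361, and 0 of the 40 were higher without replicate 1, 2 or 3 of 24 h or replicate 1 or 2 of 48 h, and 6 without replicate 3 of 48 h. IFIT1 read 10.12 ± 0.49 at 48 h and 10.10 ± 1.04 at 24 h (SD, n = 3 each), a difference of 0.02 (adjusted p = 0.993). Of the 38 cyclins, kinases and checkpoint genes 10 were lower at 48 h than at 24 h, as were 4 of 14 kinesins. With only the 6 arrays compared in the fit, 10 genes were called in all, 1 higher and 9 lower, with 4 of the 38 and 0 of the 14 among the lower. Without 1 array of 24 h or 48 h the kinesin count was 1 to 6. PLK4 and BIRC5 had differences of -1.43 and -1.38 for 48 h minus 24 h (adjusted p = 0.00539 and 0.0196), and KIF14, a kinesin of cytokinesis picked after its values were seen, -2.03 (adjusted p = 0.00227). With only the 6 arrays compared, the adjusted p was 0.128 for PLK4, 0.0346 for BIRC5 and 0.0657 for KIF14. MMP13 read 7.39 ± 0.22 at 48 h, 5.01 ± 0.48 at 24 h and 2.80 ± 0.14 at 0 h (SD, n = 3 each), and was higher at 48 h than at 24 h by 2.38 (adjusted p = 6.5e-06, and 0.0346 with only the 6 arrays compared). RRM1 had -1.26 for 48 h minus 24 h (adjusted p = 0.000459, and 0.0667 with only the 6 arrays compared). TNF and TIMP1 had differences of -0.96 and -1.09 that were not called (adjusted p = 0.262 and 0.295). The count of 74 became 37 and 35 without replicate 1 or 2 of 24 h, and 39, 45 and 258 without replicate 1, 2 or 3 of 48 h.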

How the data were processed

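Gene expression was measured on 18 Affymetrix arrays, 3 for each of 6 harvest times. The deposited values are normalized log2 intensities, 1 per probe set. The log base was read from their range, and the authors' normalization, build and software are not given in the sources used here. Of 33297 probe sets, 19460 name 1 gene in the platform annotation, 1754 name several and 12083 are not named here. For each of 18417 genes the probe set of highest mean over all arrays was kept. Limma 3.58.1 in R 4.3.3 fitted all 18 arrays with harvest time as the only term (lmFit and eBayes), and p-values were adjusted by Benjamini-Hochberg over all 18417 genes. The procedure was tested on simulated data. Python 3.11.15, pandas 2.3.3 and matplotlib 3.10.9 made the summaries. The number of arrays limits the precision.

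The 63 gene lists and the compared times were chosen with earlier results of these data known. Genes named by size or p were drawn from the 15 largest rises and falls whose groups do not overlap, plus up to 4 called members of each list by size of difference. Not every gene so chosen is described above. Where under 2 members passed, the 2 of smallest p were taken. MX1, MX2, ISG15, OAS1, USP18, BST2, HERC5, OAS3, CMPK2, IFITM2, IFITM3, IRF7, MYC, KIF14 and the promoters of PCLAF and MAD2L1 were picked after their values were seen. Promoters are RefSeq windows of GRCh38.p14, searched on both strands from 250 bases before to 50 after the start and printed to 30 after it. SPARCL1 and RGS13 fell further than MAD2L1 and hold a CHR, but are not in the cell division lists. Alternatives changed the normalization, the filter on dim genes, the choice of probe set, the variance model and the arrays included.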

Additional observations from a re-analysis of the deposited data

Results flagged for a closer look

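Signal outside the genes reported above was also present. Of the 1754 probe sets that name several genes, 58 (3.31%) differed between 24 h and 0 h in limma's test; 24 were higher at 24 h and 34 were lower. Of the 12083 probe sets that are not named here, 153 (1.27%) were called, 53 higher and 100 lower. Both shares were below the 12.5% of genes called above. These probe sets were fitted and adjusted apart from the genes, so the shares are not strictly comparable. No gene can be given to these probe sets here.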

How the results depend on the processing

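For 24 h against 0 h, all alternatives gave counts within 1.5 times the 2298 genes called, from 1634 to 3256. Leaving out 1 array gave 1634 to 2027, and array weights gave 3256. Of 213 called genes chosen by size or p, not all of them described above, 172 kept the call under all 16 alternatives and 0 changed direction. ISG15, OAS1, MX2, BST2 and MYC are not among the 213. Most losses came from leaving out 1 array, 32 and 31 genes without replicate 1 or 2 of 24 h, 13 without replicate 3 of 24 h and 25, 22 and 19 without replicate 1, 2 or 3 of 0 h. With only the 6 arrays compared, 15 were lost. The median difference over all genes was -0.007 as deposited, -0.026 after quantile normalization and -0.098 with arrays centred on their medians, and 7 of 63 list medians, none above 0.082 in size, changed sign under at least 1 of these.

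For 24 h against 12 h, array weights gave 1099 genes in place of 252, and leaving out 1 array gave 105 to 335. For 48 h against 24 h, array weights gave 206 in place of 74, the 6 arrays alone 10, and leaving out 1 array 35 to 258. The cause was not tested. With the replicate number as a block, 2427 genes were called for 24 h against 0 h, 306 for 24 h against 12 h and 104 for 48 h against 24 h. The labels do not say whether arrays of equal number are paired, and pairing was not tested. Deviations of same-numbered arrays of 24 h and 0 h correlated at 0.078, -0.148 and -0.069, and those of different-numbered arrays at -0.115 to 0.167. For 24 h and 12 h they were -0.031, -0.243 and -0.104, against -0.066 to 0.147. For 48 h and 24 h they were 0.004, 0.237 and 0.303, against -0.343 to 0.181.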
